A study of Mus musculus with 7 samples.

Results

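The loci described are those of Foxp3, Il2ra and Ikzf2, genes that mark regulatory T (Treg) cells, in chromatin immunoprecipitation sequencing (ChIP-seq) of mouse spleen Treg cells on a C57BL/6 background. Their members are the peak summits, the single bases of highest signal in each called peak, that lay in a fixed mm9 window around each gene. The windows were chromosome X from 7100000 to 7220000 for Foxp3, chromosome 2 from 11510000 to 11670000 for Il2ra and chromosome 1 from 69530000 to 69830000 for Ikzf2. They held 13 of the 10739 summits in all. IRF4 is a factor of the interferon regulatory family on which effector Treg cells depend. Its precipitation was done in 3 wild-type (WT) samples and in 2 samples of cells lacking RelA (p65KO), each after 48 h with anti-CD3 and anti-CD28. RelA is the p65 subunit of NF-κB, and it was mapped in 2 WT samples after 30 min with PMA and ionomycin. The sources used here do not give how RelA was removed, whether samples came from separate mice, or the age and sex of the mice.

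Foxp3 encodes the transcription factor that defines the Treg lineage and keeps its identity stable. Il2ra encodes CD25, the α chain that gives the interleukin-2 receptor its high affinity, and Treg cells depend on interleukin-2. Ikzf2 encodes Helios, a zinc finger factor of the Ikaros family that most thymus-derived Treg cells express. After T cell receptor stimulation IRF4 commonly binds DNA together with BATF and JUN proteins at composite AP-1-IRF elements, while RelA dimers bind κB sites soon after they enter the nucleus. These roles are background; summit lists hold no RNA or protein levels, so neither the cell type nor the loss of RelA could be checked in them.

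The RefSeq promoters of Il2ra and Foxp3 are shown because they let the letters near each gene's start be searched for the κB and IRF patterns that the 2 precipitated factors recognise. Both are given 5′ to 3′ on the plus strand, from 250 bases before the annotated start up to the base before it, in build GRCm38.p6. That build differs from mm9, so these letters could not be set against the summits. The Il2ra stretch is chr2:11642542-11642791 and the Foxp3 stretch, at the earlier of the table's starts, is chrX:7579426-7579675. Capitals mark the letters covered by any match to the motifs given after the sequences.
Il2ra: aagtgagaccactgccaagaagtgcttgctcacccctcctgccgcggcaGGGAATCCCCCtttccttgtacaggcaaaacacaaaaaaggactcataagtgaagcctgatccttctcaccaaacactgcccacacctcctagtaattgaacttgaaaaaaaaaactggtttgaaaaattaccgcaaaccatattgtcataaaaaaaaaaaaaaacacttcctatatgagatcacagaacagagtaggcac
Foxp3: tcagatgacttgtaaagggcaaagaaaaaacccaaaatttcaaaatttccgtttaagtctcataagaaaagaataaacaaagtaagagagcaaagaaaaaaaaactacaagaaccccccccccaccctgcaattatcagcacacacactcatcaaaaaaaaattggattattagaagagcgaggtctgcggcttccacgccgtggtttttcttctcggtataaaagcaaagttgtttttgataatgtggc
The Il2ra stretch held a loose κB pattern, GGG and CC with any 5 letters between them, on both strands. Its overlapping matches began 201 bases before the start with the letters GGGAATCCCC. That pattern was present in 45.8% of the 32851 promoter entries of the table, so its presence is common. A stricter κB pattern, GGGA and TTTCC with any 1 letter between them, is in 0.356% of entries and was not found in either stretch. The IRF pattern of GAAA repeated after any 2 letters (2.98% of entries) and its core GAAANNGAA (7.13%) were not found either. The same held for the composite of TTTC and TGANTCA with any 4 letters between them (0.0974%) or any 1 letter (0.0517%). All patterns were searched on both strands. No searched pattern was found at the other Foxp3 start of the table either. A match describes letters only and does not show binding. The table held entries for 2 of the 3 genes.

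IRF4 summits were called at all 3 loci in p65KO cells and at Il2ra and Ikzf2 in WT cells, and no p65 summit was called at any of them. The WT IRF4 list had no summit in the Foxp3 window, 4 in the Il2ra window and 2 in the Ikzf2 window. The p65KO IRF4 list had 1, 3 and 3 in the same order. The complete lists held 5630 WT and 4312 p65KO IRF4 summits and 797 p65 summits. Of these, 5533, 4270 and 605 in the same order lay on chromosomes 1 to 19 and X, and the others could not fall in any window. Each group came as 1 list without values per sample, so nothing below has a replicate error and no test across samples was possible. Read depth is unknown from such lists. The peak names carry the words No-Input, which reads as peak calling without an input library; the settings are not stated.

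**Figure D1:**
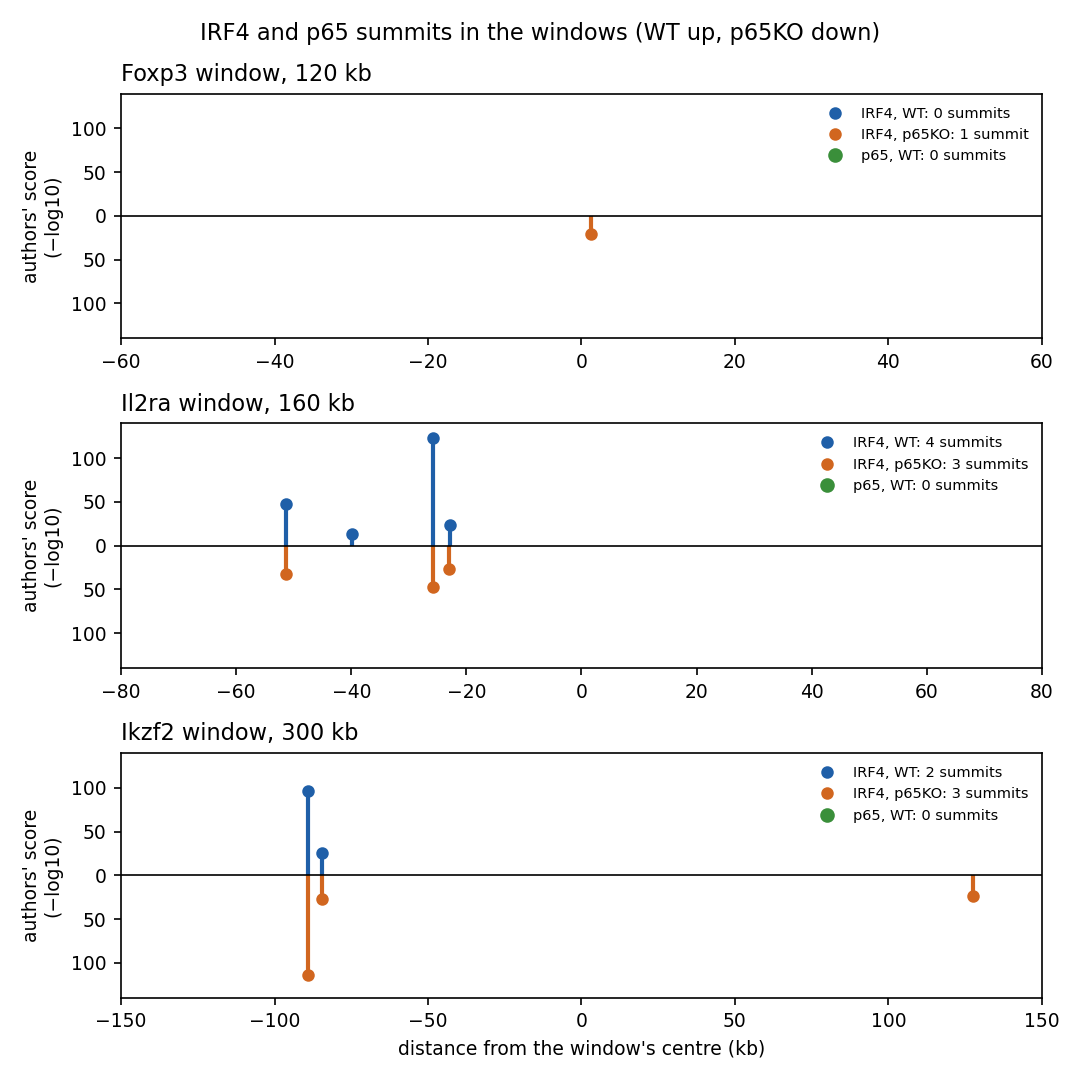
Summits in the 3 windows, with the distance from the window's centre in kb on the horizontal axis and the authors' −log10 score on the vertical axis, WT IRF4 upward and p65KO IRF4 downward, 1 stem per summit. The tallest stems are the Il2ra summit of WT cells at 122.6 and the Ikzf2 summit of p65KO cells at 114.1, and no window has a p65 summit.

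Il2ra had the most summits. Those of the WT list lay at 11538683, 11550047, 11564268 and 11567083 on chromosome 2, with authors' scores of 47.4, 12.9, 122.6 and 23.9. The score is a −log10 significance value of the peak, and the median over all WT IRF4 summits was 26.3. The summit at 11564268 ranked 162 of 5630, with 2.86% of the list above it. The summit at 11538683 ranked 1231 and that at 11567083 ranked 3156. The remaining summit, at 11550047, ranked 5311, so that 94.3% of the list scored higher. The Il2ra window therefore held a summit from near the top of the WT list and another from near its bottom.

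In p65KO cells the Il2ra summits lay at 11538654, 11564263 and 11567034, with scores of 32.5, 46.9 and 26.2, against a list median of 27.3. Their ranks were 1715, 1025 and 2259 of 4312. Each was the mutual nearest neighbour of a WT summit, at 29, 5 and 49 bp. Over all 3625 such IRF4 pairs within 200 bp the median separation was 17 bp (interquartile range 7 to 35). The Il2ra summits of p65KO cells thus all lay beside a WT summit, and only the lowest WT summit, at 11550047, had no partner. The nearest p65KO summit to it lay 11393 bp away. In its decile of the WT scores, the lowest, 28.2% of 563 summits had a partner. It was no longer in the WT list when that list was reduced by score to the length of the p65KO list, which left 3 Il2ra summits in each genotype.

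The highest Il2ra summit had very different scores in the lists, 122.6 in WT and 46.9 in p65KO cells. Only 5 of the 3625 matched positions (0.138%) had a larger fall in score than this one, whose p65KO score minus WT score was -75.6. So large a fall needs a high WT score. The median WT score of the matched positions was 35.1, and positions at or below it could not fall that far. The share of 0.138% thus counts many positions that had no room for such a fall. Over all matched positions the p65KO score minus the WT score had a median of -2.57 (interquartile range -12.8 to 5.97). Differences were more negative at high WT scores, but this groups positions by the WT score, which is itself part of the difference. No grouping by p65KO score was made, so a weakening of strong sites cannot be read from it. Among the 560 matched positions in the highest WT decile the median difference was -11.3 (-28.5 to 7.12), and the same 5 positions, 0.893%, fell further. Among matched positions alone it ranked 160 in WT and 1021 in p65KO cells. Of the 160 positions that scored as high or higher in WT cells, 2 scored no higher than 46.9 in p65KO cells, this summit and chromosome 13 at 115671023 (124.9 and 35.9). By places in the ranking, 442 pairs (12.2%) dropped further. This summit was singled out after its values were seen. Scores of lists made from 3 and 2 samples of unknown depth need not share a scale, and whether the difference exceeds the spread between samples cannot be told from pooled lists.

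Its neighbours in the Il2ra window did not show the same difference. The summit 2815 bp further along in WT cells scored 23.9, and its p65KO partner 26.2. That difference of 2.23 lay within the interquartile range of all pairs. The summit at 11538683 had 47.4 in WT and 32.5 in p65KO cells, a difference of -14.8, and 20.6% of all pairs fell further. The 3 matched positions of 1 locus thus covered a large fall, a moderate fall and a small rise in score.

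**Figure D2:**
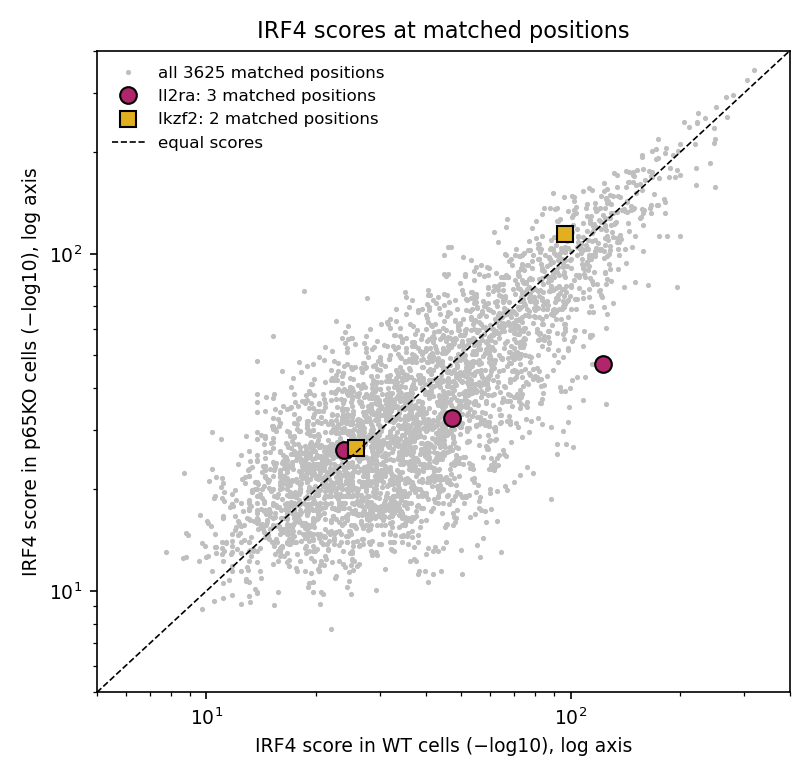
IRF4 scores at all 3625 positions matched between the genotypes (grey) with the 3 matched positions of Il2ra and the 2 of Ikzf2, WT score on the horizontal and p65KO score on the vertical axis, both log axes in −log10 units. The highest Il2ra position, at 122.6 and 46.9, lies at the lower edge of the cloud, while both Ikzf2 positions lie close to the line of equal scores.

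Ikzf2 carried a strong and a moderate IRF4 summit at the same places in both genotypes. In WT cells they lay on chromosome 1 at 69590976 and 69595534, with scores of 96.8 and 25.7 and ranks of 312 and 2898. In p65KO cells they lay at 69590974 and 69595552, with scores of 114.1 and 26.5 and ranks of 172 and 2238. The partners were 2 and 18 bp apart. At the stronger position the p65KO score was higher by 17.3, and 91.5% of the matched positions had a lower difference. At the weaker it was higher by 0.790. Over all matched positions 42.2% had the higher score in p65KO cells. Both Ikzf2 positions were therefore on the side of the minority, but the weaker one by less than the usual spread over pairs.

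The third Ikzf2 summit was called in p65KO cells alone, at 69807503, with a score of 23.7 and rank 2538. It lay 211951 bp from the nearest other summit of its list and 211969 bp from the nearest WT summit. In its decile of p65KO scores 86.8% of 431 summits had a WT partner, so it belonged to the smaller share without one. It also lay 22.5 kb inside the far bound of the window. The nearest summits outside the near bound, at 69508009 in WT (score 21.0) and 69508004 in p65KO cells (20.4), were 22.0 kb beyond it.

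Foxp3 had a single summit, in p65KO cells, at 7161213 on chromosome X, with a score of 20.1 and rank 3000 of 4312. The nearest WT IRF4 summit lay 137007 bp away, at 7024206, 75.8 kb outside the window, with a score of 15.2. In the decile of the Foxp3 summit 79.1% of 431 p65KO summits had a WT partner, and on chromosome X 43 of 64 did (67.2%). The next p65KO summits were 2380096 bp before it and 1555668 bp after it. The Foxp3 summit thus stood alone in its window and was of modest score in its list, close to the p65KO median of 20.6 on chromosome X. With 3.85 p65KO summits per 10 Mb on that chromosome, such gaps are not particular to this summit. On chromosome X as a whole 29 of the 64 p65KO summits scored lower.

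**Figure D3:**
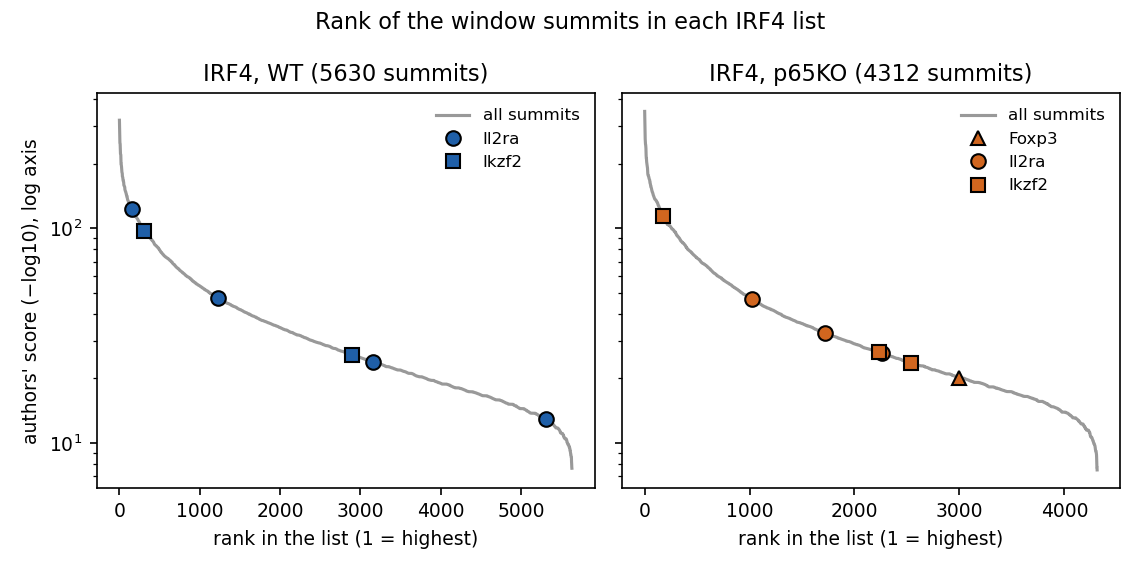
Authors' score (−log10, log axis) against rank in the list for all WT (left) and p65KO (right) IRF4 summits, grey line, with the summits of the windows marked by gene. The highest Il2ra summit stands at rank 162 in WT and 1025 in p65KO cells, the highest Ikzf2 summit at 312 and 172, and the only Foxp3 summit at 3000 in p65KO cells.

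Across the 3 loci, 5 of the 6 WT IRF4 summits had a p65KO partner within 200 bp (83.3%, 95% Wilson interval 43.6 to 97.0), against 64.4% of the whole WT list. In the other direction 5 of 7 p65KO summits had a WT partner (71.4%, 35.9 to 91.8), against 84.1% of the p65KO list. The intervals cover counting error only, treat the summits as independent and include the shares of the lists. The same 5 pairs give both numerators, and the shares of the lists are not matched for score. With so few summits no departure from the lists was detectable, and none could be excluded. In each list 3 of these summits scored above the list's median. The median score at the loci was 36.5 in WT and 26.5 in p65KO cells, beside 26.3 and 27.3 for the lists.

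How unusual such counts are depends on the length of the window. Cut into consecutive stretches of 160 kb, chromosomes 1 to 19 and X had at least 1 WT IRF4 summit in 19.5% of stretches and at least 4, as Il2ra had, in 1.39%. For p65KO summits 16.6% had at least 1, and 2.11% at least 3. In stretches of 300 kb, the length of the Ikzf2 window, 29.3% had at least 1 WT summit and 15.2% at least 2, and 25.7% had at least 1 p65KO summit and 5.49% at least 3. At the 120 kb of the Foxp3 window the shares with any IRF4 summit were 15.9% in WT and 13.3% in p65KO cells. These shares include stretches without genes, so they describe the lists and say nothing of genes alone.

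Chromosome X was sparse in IRF4 summits. It had 64 in each genotype, 3.85 per 10 Mb, against 21.1 (WT) and 16.3 (p65KO) per 10 Mb over chromosomes 1 to 19 and X together. Only 3.53% of its 120 kb stretches had a WT and 3.60% a p65KO IRF4 summit. A Foxp3 window without a WT summit is therefore like most of its chromosome, where 49 of 1387 such stretches had one. In p65KO cells 50 of 1387 had one, so the Foxp3 window was among the few that did. For p65 the share on chromosome X was 1.95%. Chromosomes 2 and 1 had 23.8 and 23.5 WT summits per 10 Mb.

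The stretches beside the windows differed between the loci. Next to Il2ra, the 160 kb before the window held 1 summit of each genotype and the 160 kb after it none. Beside Ikzf2, the 300 kb before the window held 4 summits in each genotype, and the 300 kb after it none. The 120 kb before the Foxp3 window held the WT summit at 7024206 and no p65KO summit, and the 120 kb after it none. So Il2ra had more summits than its flanks, while Ikzf2 had fewer than the stretch before it.

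**Figure D4:**
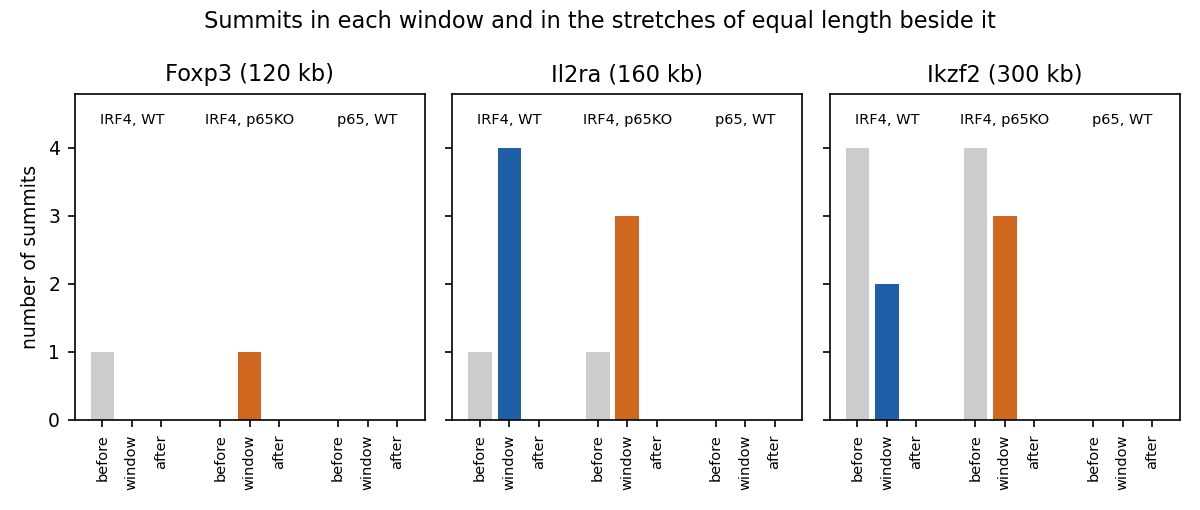
Number of summits in each window (coloured) and in the stretch of equal length before and after it (grey), for the WT IRF4, p65KO IRF4 and p65 lists. The Il2ra window has 4 and 3 IRF4 summits beside flanks of 1 and none, the Ikzf2 window 2 and 3 beside 4 and none, and no p65 summit falls in any window or flank.

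Summits at Il2ra and Ikzf2 came close together. At each of the 2 loci 2 summits of each genotype lay within 5 kb of each other, 2815 bp apart in WT and 2771 bp in p65KO cells at Il2ra, and 4558 and 4578 bp at Ikzf2. That made 4 of 6 WT and 4 of 7 p65KO summits with such a neighbour, against 14.5% and 10.7% of the lists. Each pair counts both of its summits, and the p65KO pairs lay at the same places as the WT pairs. These counts therefore rest on 2 places and are not independent. At both loci the stronger summit of the pair was the one at the lower coordinate, in both genotypes.

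No p65 summit lay near any of these IRF4 summits. The nearest p65 summit was 2378 kb from the Foxp3 summit, at least 6238 kb from those at Il2ra and at least 5012 kb from those at Ikzf2. Those p65 summits lay at 4782864 on chromosome X (score 11.1), 5300331 on chromosome 2 (29.9) and 64579077 on chromosome 1 (4.15). The p65 list was sparse there, at 3.42 summits per 10 Mb on chromosome X, 0.881 on chromosome 2 and 1.52 on chromosome 1. Such long distances therefore say little about these loci. None of the 6 WT or 7 p65KO IRF4 summits had p65 within 200 bp, against 4% of all WT IRF4 summits and 4.15% of those in p65KO cells. A stretch without p65 was the usual case: of stretches as long as the Foxp3, Il2ra and Ikzf2 windows, 1.40%, 1.83% and 3.21% held at least 1 p65 summit. The fullest 300 kb stretch held 40 p65 summits, so the list was unevenly spread. The p65 list was short although its q cut-off, 0.05, was looser than the 1e-06 of the IRF4 lists, and p65 was mapped after 30 min of another stimulus, so where RelA sat during the IRF4 experiment is unknown. An uncalled p65 peak does not show that RelA was absent from the locus.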

How the data were processed

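The authors deposited 3 lists of 1 bp peak summits, 1 per group, each with a −log10 score, of p or of q; the sources used here do not say which. MACS2 2.1.0, Subread, featureCounts and the build mm9 are named in the submitters' processing notes, without settings. The cut-offs (q = 1e-06 for IRF4, 0.05 for p65) are in the names of the deposited lists. They pool replicates by an unstated method.

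Groups came from sample titles. Positions are 1-based mm9. Every summit in the 3 windows was described, with the nearest outside. IRF4 partners were mutual nearest neighbours within 200 bp; p65 was sought within 200 bp. Consecutive stretches of each window's length, from each chromosome's start to its last summit, gave the background. Matching was tested on simulated data. Motifs were searched in the 250 bases before each RefSeq start. The genes, windows and tests were chosen with earlier results of these data known. No mm9 annotation was used here, so summits were not placed in exons, introns or promoters, and genes of like pattern were not named. The work used Python 3.11.15 with scipy 1.17.1, pandas 2.3.3, numpy 2.4.6 and matplotlib 3.10.9.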

Additional observations from a re-analysis of the deposited data

How the results depend on the processing

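No paired analysis was possible because each group is 1 pooled list without values per replicate, and for the same reason no replicate could be left out. With only summits above their list's median, the Foxp3 window held 0 p65KO summits. Il2ra then held 2 WT and 2 p65KO summits, and Ikzf2 1 WT and 1 p65KO summit. All IRF4 summits left in the windows then had a partner, 3 of 3 in each genotype (100% for WT and 100% for p65KO). High-scoring summits mostly had one anywhere: 99.5% in the highest WT decile and 99.8% in the highest p65KO decile, against 28.2% in the lowest WT decile. The share over complete lists cut at the median or to equal length was not computed. A share of 100% is therefore not read as a trait of these loci. With IRF4 lists of equal length 5 of 5 WT summits had one (100%), because the unmatched Il2ra summit of WT cells dropped out and left 3 there; the p65KO share remained 5 of 7 (71.4%). The share of positions that fell further than the highest Il2ra summit rose to 0.893% within the highest WT decile, an alternative added after the data were seen, because fewer positions are counted. Windows widened by 50 kb or narrowed by 20 kb, or 1 summit per 500 bp, moved no count by more than 1.5 times. Matching within 100 bp, 500 bp or 1 kb left the partner shares at 83.3% and 71.4%. Seeking p65 within 1 or 10 kb still found none. Ranking on placed chromosomes shifted ranks little, as from 5311 to 5227 for the lowest WT summit at Il2ra. Shares and ranks were judged against a 95% binomial interval. For 5 of 6 summits it runs from 43.6 to 97.0, so staying within it shows little.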
